A study of Mus musculus with 7 samples.

Results

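Interleukin-10 and interleukin-12 family genes were examined in macrophages derived from mouse bone marrow. The members were 8 genes chosen by family: the cytokine Il10, the IL-12 family subunits Il12a, Il12b, Il23a, Il27 and Ebi3, and the receptor chains Il10ra and Il10rb. A gene was measured when an array probe set carried its symbol and no other, and 7 of the 8 were, with 11 probe sets between them, among 18193 genes measured in all. Il27 was not analysed here. Where a gene had several probe sets, the one that was brightest on average was used and the others are given beside it.

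The study asked which genes MDP and Pam3CSK4 induce in naive macrophages and how those genes respond in macrophages already exposed to a ligand. Muramyl dipeptide (MDP) is a fragment of bacterial cell wall peptidoglycan sensed in the cytosol through Nod2, and Pam3CSK4 is a synthetic lipopeptide sensed at the cell surface by Tlr2 with Tlr1. All cultures passed through a first period of 24 h and a second of 3 h. The 3 naive cultures had no ligand in the first period and then no ligand (unstimulated), MDP or Pam3CSK4. The 4 pretreated cultures had MDP followed by MDP, MDP followed by Pam3CSK4, Pam3CSK4 followed by MDP, or Pam3CSK4 followed by Pam3CSK4. The labels give the doses as 10 mg/ml for MDP and 1 mg/ml for Pam3CSK4, and give neither the strain nor the age of the mice. The unit may have lost a prefix in the labels, so the doses are uncertain. Each of the 7 groups was 1 Affymetrix array, so no difference here has a replicate check or a p-value, and neighbouring levels cannot be separated from the spread between cultures. All pretreated cultures received a ligand in the second period too, so what a second ligand added cannot be told apart from what the pretreatment left.

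IL-10 is a secreted cytokine that restrains macrophage activation. It binds a receptor made of Il10ra, which recognises the ligand, and Il10rb, a chain shared with other cytokines of the family, and signals through Jak1, Tyk2 and Stat3. The IL-12 family cytokines are pairs of subunits. Il12a and Il12b together form IL-12, Il23a and Il12b form IL-23, Il27 and Ebi3 form IL-27, and Il12a and Ebi3 form IL-35. IL-12 drives type 1 T helper cells and IL-23 sustains T helper 17 cells. In macrophages Il12b is among the subunits whose transcription is switched on by Toll-like receptor ligands.

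Of the IL-12 family subunits, Il12b and Ebi3 were the ones that exceeded the median of at least 1 array. The bases before their transcription starts are shown because both genes were higher with a first exposure to Pam3CSK4 than in unstimulated cells. They come from a reference table of RefSeq promoters on GRCm38.p6. It held no promoter for Il10, Il23a, Il27, Il10ra or Il10rb, so none of these was searched. The windows shown lie on the plus strand, at chr11:44399813-44400062 for Il12b and chr17:55952373-55952622 for Ebi3, and hold the 250 bases before the start. Capitals mark matches to the motifs described after them.
Il12b: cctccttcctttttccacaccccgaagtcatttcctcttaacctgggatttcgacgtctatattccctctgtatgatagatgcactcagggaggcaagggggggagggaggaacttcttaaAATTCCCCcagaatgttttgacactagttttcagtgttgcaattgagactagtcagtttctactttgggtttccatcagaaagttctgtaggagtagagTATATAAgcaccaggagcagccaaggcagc
Ebi3: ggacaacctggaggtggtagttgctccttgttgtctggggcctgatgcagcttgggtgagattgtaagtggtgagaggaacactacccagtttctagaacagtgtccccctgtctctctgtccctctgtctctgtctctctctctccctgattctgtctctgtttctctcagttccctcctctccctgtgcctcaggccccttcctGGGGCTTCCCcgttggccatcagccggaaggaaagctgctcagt

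In the Il12b window, capitals mark AATTCCCC, which is GGGGAATT read on the other strand, part of a known NF-kB site, 129 to 122 bases before the start, and TATATAA, a variant of the box that positions transcription starts, 30 to 24 bases before it. These 2 motifs were chosen after the sequence was read. GGGGAATT occurs on either strand in 0.734% of the 32851 promoters in the table, and TATATAA in 3.04%. In the Ebi3 window they mark GGGGCTTCCC, a match on the other strand to the NF-kB motif, GGGA and CC with 4 bases of any kind between them, 44 to 35 bases before the start, a motif that 17.6% of the promoters hold. Il12a, not shown because it lay below the median throughout, has 2 starts in the table. The window of 1 start matched this NF-kB motif 113 to 104 bases before it, and on the other strand 112 to 103 bases before it, and the window of the other start matched no motif searched. None of these 4 windows matched TGANTCA (AP-1), TGACGTCA (CRE), the ISRE (GAAA repeated after a gap of 2 bases), TTCNNNGAA (STAT), TTNNGCAA (C/EBP) or TATAAA, the usual form of that box, on either strand, which occur in 6.75%, 1.55%, 2.98%, 7.02%, 9.56% and 12.4% of the promoters. TATATAA holds no TATAAA, and none of the matches shown overlap. A match describes the letters and not binding.

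The cell type was checked against its markers. All 8 measured macrophage markers, among them Csf1r, Adgre1, Cd68 and Lyz2, lay above the array median on all 7 arrays, with a mean level between 12.6 and 13.2 on the log2 scale. Of 7 dendritic cell markers, cells that also make IL-12, Flt3 lay above the median on all arrays, Zbtb46, Cd209a, Itgae and Xcr1 on none, and the mean level ranged from 5.03 to 5.26. Of 5 T and NK cell markers Cd3e, Cd4 and Cd8a lay above the median on all arrays and Cd3g and Ncr1 on none, with mean levels of 5.77 to 5.95. Of 5 B cell markers Cd79b, Pax5 and Cd22 lay above it on all arrays and Ms4a1 on none, with mean levels of 6.22 to 6.69. Of 6 neutrophil markers Elane, S100a8, Ngp and Camp lay above it on all arrays and Mpo and Cxcr2 on none, with mean levels of 7.61 to 7.92, and S100a8 reached 10.98 to 12.15 and Ngp 10.08 to 10.81. Of 6 stromal markers Col1a2 and Dcn lay above it on all arrays and Col1a1, Col3a1, Pdgfra and Lum on none, with mean levels of 5.15 to 5.65. In bulk cultures fewer expressing cells and less RNA per cell cannot be told apart. Array medians ran from 5.48 to 5.55, and a value below its array's median is treated as not distinguishable from background. Where 1 of a pair of values lies there, the array median stands in for it and the difference is a bound.

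Il10 stood highest on the 2 arrays with a first exposure to Pam3CSK4. Its values on the log2 scale were 7.40 in unstimulated cells, 7.51 with MDP and 10.47 with Pam3CSK4 in naive cells, 7.56 after a second MDP exposure, 10.51 with Pam3CSK4 after MDP, 8.92 with MDP after Pam3CSK4 and 8.62 after a second Pam3CSK4 exposure. The values form 3 levels: a low one on the arrays that never saw Pam3CSK4, a high one on those that saw it for the first time in the last 3 h, and a middle one on those that saw it in the first 24 h. A first exposure to Pam3CSK4 was 8.38-fold over unstimulated and 7.76-fold over MDP, and MDP was 1.08-fold over unstimulated. There was 1 Il10 probe set, so no second one checks it.

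Il12b exceeded the array median only where Pam3CSK4 was met for the first time. Its values were 3.74 in unstimulated cells, 4.15 with MDP and 6.37 with Pam3CSK4 in naive cells, 3.89 after a second MDP exposure, 6.95 with Pam3CSK4 after MDP, 4.02 with MDP after Pam3CSK4 and 4.06 after a second Pam3CSK4 exposure. The 2 arrays above the median stand apart from the other 5, which lay between 3.74 and 4.15. By the deposited values naive Pam3CSK4 was 6.20-fold over unstimulated, and counted from the array median it was at least 1.83-fold. The second Il12b probe set ran from 3.73 to 3.93 on those 5 arrays and was 5.46 with Pam3CSK4 in naive cells, just under the array median of 5.54, and 6.37 with Pam3CSK4 after MDP.

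Ebi3, the partner of Il27 and Il12a, was high on all arrays and moved over a narrower range. It read 11.23 in unstimulated cells, 11.39 with MDP and 12.39 with Pam3CSK4 in naive cells, 11.61 after a second MDP exposure, 12.71 with Pam3CSK4 after MDP, 12.28 with MDP after Pam3CSK4 and 12.24 after a second Pam3CSK4 exposure. The 4 arrays with any exposure to Pam3CSK4 lay above the 3 without. Unlike the first 2 genes it lay near its first-exposure level on the Pam3CSK4-pretreated arrays. Naive Pam3CSK4 was 2.23-fold over unstimulated, short of the study's 3-fold threshold.

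Il12a and Il23a, the subunits that pair with Il12b, lay below the median of every array. Il12a ranged from 4.28 to 4.49 and Il23a from 4.37 to 4.88, with the highest Il23a value on the array with Pam3CSK4 after MDP. No fold is given for either.

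The receptor chains differed from one another. Il10ra read 8.17 in unstimulated cells, 8.46 with MDP and 8.87 with Pam3CSK4 in naive cells, 8.45 after a second MDP exposure, 9.18 with Pam3CSK4 after MDP, 9.28 with MDP after Pam3CSK4 and 9.03 after a second Pam3CSK4 exposure. As for Ebi3, the 4 arrays with Pam3CSK4 lay above the 3 without, and the largest difference from unstimulated was 2.16-fold, with MDP after Pam3CSK4. The 2 other Il10ra probe sets moved less, ranging over 0.47 and 0.53, and the second of these lay below the median on all arrays. Il10rb, the shared chain, stayed between 12.78 and 12.98 over the 7 arrays, and its dimmer probe set between 5.74 and 6.34.

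**Figure D1:**
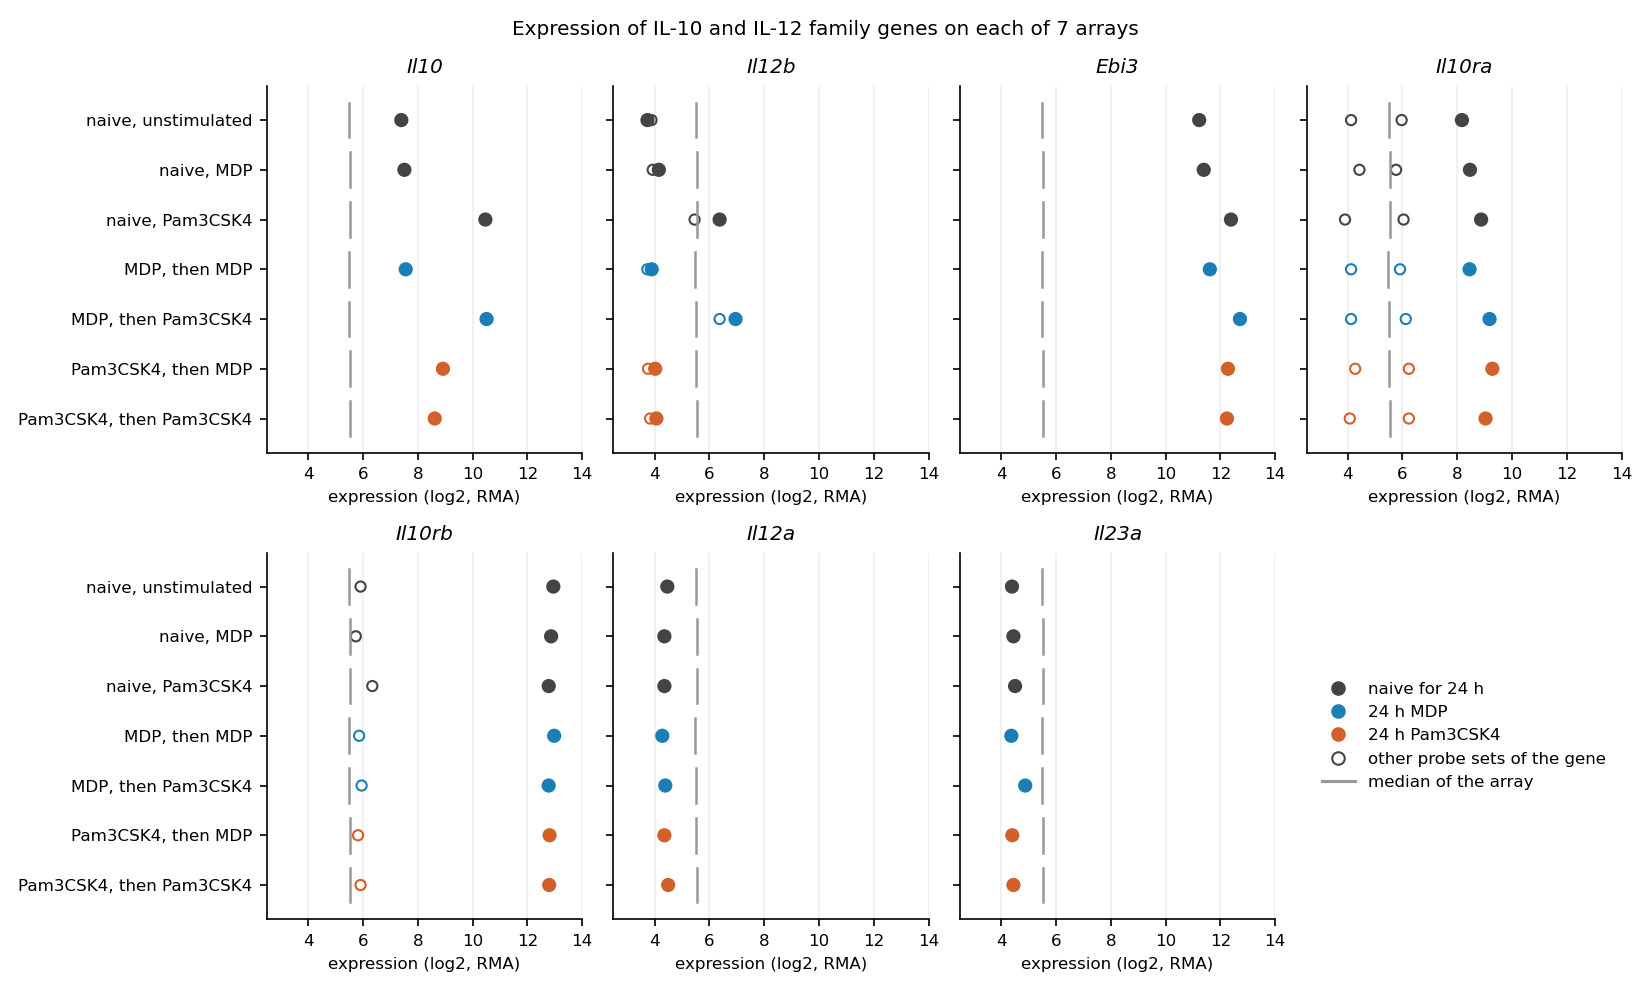
Expression on the log2 scale (x axis) of the 7 measured genes on each of the 7 arrays (y axis), with 1 point for each array. Filled points are the probe set used, open points the others, grey lines the array medians, and colours the first 24 h; Il10 forms 3 levels, at 7.40 to 7.56, at 8.62 to 8.92 and at 10.47 to 10.51, and Il12b passes the median on the 2 arrays with a first exposure to Pam3CSK4.

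In naive cells given MDP the 4 members above the median on both arrays lay within 1.22-fold of unstimulated, and 0 of 7 were 3-fold higher or lower, where 0.22% of all genes were 3-fold higher and 0.0055% 3-fold lower. Il10ra was the furthest of the 4, at 0.29 on the log2 scale, and Il12b, Il12a and Il23a lay below the median on both arrays. With Pam3CSK4, 2 of 7 members, Il10 (3.07) and Il12b (2.63 as deposited, at least 0.87), were 3-fold higher by the deposited values, beside 1.28% of all genes, and none was 3-fold lower, beside 0.605%. At its bound Il12b did not pass. Ebi3 was at 1.16, Il10ra at 0.70 and Il10rb at -0.17. The members' median difference was 0.70, against 0.00 over all genes. Set against each other, the naive arrays gave the same 2 members 2-fold higher with Pam3CSK4 than with MDP, Il10 by 2.96 and Il12b by 2.22 as deposited but at least 0.83 at its bound, short of 2-fold, where 1.4% of genes were 2-fold higher and 0.709% lower. Ebi3 was at the line, at 0.99, and with the arrays centred on housekeeping genes at 1.08. These comparisons share their control arrays, so their values are not independent of each other.

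After MDP pretreatment the members lay close to their first-exposure values. Under a second MDP exposure 0 of 7 were 2-fold higher or lower than under a first, where 0.385% of all genes were higher and 0.291% lower. Ebi3 (0.22) and Il10rb (0.11) were the furthest up among members above the median, and Il10ra differed by -0.01. Against unstimulated cells 0 of 7 were 3-fold higher after a second MDP exposure, beside 0.126% of genes. When Pam3CSK4 followed MDP, 0 of 7 again were 2-fold from a first exposure to Pam3CSK4, where 0.297% of genes were higher and 0.022% lower. Il10 differed by 0.04, Ebi3 by 0.33 and Il10ra by 0.31. Il12b was 0.58 higher, and its other probe set read 6.37 against 5.46, a value below its array median. For both probe sets the array with MDP before Pam3CSK4 was the highest of the 7. Over unstimulated, Il10 (8.64-fold) and Il12b (at least 2.73-fold) were the 2 members past 3-fold by the deposited values, beside 1.79% of genes. Within MDP-pretreated cells, Pam3CSK4 gave 3 members 2-fold higher than MDP did, namely Il10 (7.73-fold), Il12b (at least 2.77-fold) and Ebi3 (2.14-fold), beside 2.41% of genes.

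After Pam3CSK4 pretreatment Il10 lay between its unstimulated and first-exposure levels and Il12b lay below the median. After a second Pam3CSK4 exposure, 2 of 7 members were 2-fold lower than after a first exposure, beside 2.3% of all genes, and 0 were 2-fold higher, beside 2.41%. Il10 was 3.60-fold lower (-1.85) and remained 2.33-fold over unstimulated. Il12b was back below the median, with a difference of -2.31 as deposited, at least 1.78-fold lower counted from the median, which does not pass 2-fold. Its other probe set lay below the median on both arrays. Ebi3 (-0.15), Il10ra (0.16) and Il10rb (0.02) lay close to their first-exposure values. The median over the 7 members was -0.06, against 0.01 over all genes. No member was 3-fold over unstimulated, where 1.37% of genes were.

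When MDP followed Pam3CSK4, Il10 was 2.65-fold higher (1.41) than with MDP in naive cells. It was the 1 member of 7 that was 2-fold higher, beside 2.14% of all genes, and none was 2-fold lower, beside 1.71%. With values under the 75th percentile of their array set to it, the Il10 difference was 0.86. Ebi3 (0.88) and Il10ra (0.82) were short of the threshold, and Il12b was below the median on both arrays. Over unstimulated Il10 was at 2.87-fold and Ebi3 at 2.07-fold, and 0 of 7 were 3-fold higher, beside 1.42% of genes. The differences from naive cells thus had opposite signs for the 2 ligands. The 2 Pam3CSK4-pretreated arrays (8.92 and 8.62) lay 0.30 apart in Il10, and the 2 naive arrays they were set against (7.51 and 10.47) lay 2.96 apart. These 2 arrays had 0 members 2-fold apart, and 0.0055% of all genes were.

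The pretreatments were also compared under the same second ligand. Under MDP, Il10 was 2.56-fold higher after Pam3CSK4 than after MDP, the 1 member 2-fold higher beside 1.91% of genes. Il10ra (0.83) and Ebi3 (0.66) lay higher without passing the threshold. Under Pam3CSK4, Il10 was 3.71-fold lower and Il12b at least 2.67-fold lower after Pam3CSK4 than after MDP, 2 of 7 beside 2.41% of genes. Ebi3 was at -0.47 in that comparison and Il10rb at 0.02.

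**Figure D2:**
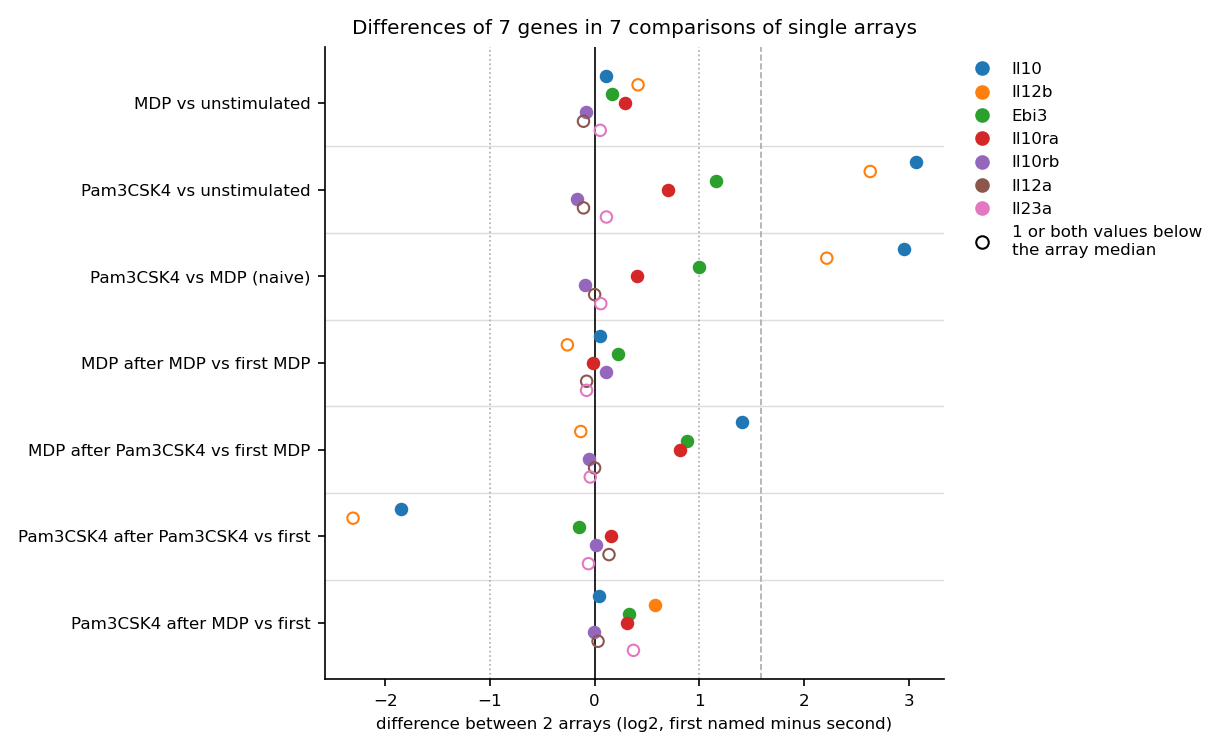
Differences on the log2 scale (x axis) of the 7 genes in 7 comparisons of single arrays (y axis), each the first named array minus the second, with open points where 1 or both values lay below the array median. Dotted lines mark 2-fold either way and the dashed line 3-fold higher; Il10 stands at 1.41 for MDP after Pam3CSK4 and at -1.85 for Pam3CSK4 after Pam3CSK4.

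Other measures moved with Pam3CSK4 pretreatment. The 3 probe sets for 18S ribosomal RNA had a median 1.70 above the unstimulated array after a second Pam3CSK4 exposure and 0.48 with MDP after Pam3CSK4, against 0.28 to 0.34 on the other stimulated arrays, while the 3 prime to 5 prime differences were 0.02 to 0.09 for Gapdh and 0.10 to 0.14 for beta-actin on all 7. Il10 was 8.92 on the Pam3CSK4-pretreated array with the smaller 18S value and 8.62 on the other. Against naive cells given the same ligand, 2 of 8 macrophage markers were 2-fold higher with MDP after Pam3CSK4, Itgam (1.30) and Fcgr1 (1.16). After a second Pam3CSK4 exposure 3 of 8 were, Itgam (1.44), Fcgr1 (1.35) and Mertk (2.02). Of all genes, 2.14% and 2.41% were 2-fold higher in these comparisons, and 1.71% and 2.3% lower. Of 6 neutrophil markers 1 was 2-fold higher in each comparison, S100a8 (1.17 and 1.05), while Ngp (-0.05 and -0.34) and Camp (-0.10 and -0.81) were not, and the list medians were -0.01 and 0.16. Of 6 stromal markers 1 was, Dcn (1.81 and 1.48), with list medians of 0.27 and 0.27. Of 5 B cell markers Cd22 was with MDP (1.03) and not with Pam3CSK4 (0.97), with list medians of 0.13 and 0.14. No dendritic, T or NK cell marker was 2-fold higher or lower in either comparison, and no marker of the other lists was 2-fold lower. Mertk, a macrophage receptor for dying cells, was lower with Pam3CSK4 than in unstimulated naive cells (-2.29). Their part in the differences of the members was not tested.

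The genes around these cytokines were taken from lists drawn up by known function. The 7 measured relatives in the IL-10 family, Il20, Il24 and the receptor chains Il20ra, Il20rb, Il22ra1, Il22ra2 and Ifnlr1, lay below the median on all 7 arrays. Of 4 receptor chains for IL-12 family cytokines, none was 3-fold from unstimulated with either ligand in naive cells. Of all genes, 0.22% were 3-fold higher and 0.0055% lower with MDP, and 1.28% and 0.605% with Pam3CSK4. Il12rb1, the chain shared by the IL-12 and IL-23 receptors, read 6.43 in unstimulated cells, 6.18 with MDP and 6.07 with Pam3CSK4 in naive cells, 6.99 after a second MDP exposure, 6.75 with Pam3CSK4 after MDP, 8.24 with MDP after Pam3CSK4 and 8.61 after a second Pam3CSK4 exposure. The Pam3CSK4-pretreated arrays were the highest, 2.06 and 2.54 above naive cells given the same ligand. Il12rb2, the other IL-12 receptor chain, was above the median only with MDP in naive cells (5.68), and was 4.54 with MDP after Pam3CSK4. Il6st, the signalling chain of the IL-27 receptor, went the other way without passing 2-fold (-0.93 and -0.52).

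Signalling genes below these receptors also split. Among 7 measured genes, Socs3, a feedback inhibitor induced by Stat3, was the 1 that was 3-fold higher with MDP (2.82), beside 0.22% of all genes. With Pam3CSK4 the 2 that were 3-fold higher were Socs3 (6.80) and Jak2 (2.69), a kinase of the IL-12 receptor, beside 1.28%. Of the chain that carries IL-10 signals, Jak1 (0.55), Tyk2 (0.43) and Stat3 (0.64) stayed short of 3-fold with Pam3CSK4. After a second Pam3CSK4 exposure Socs3 (-2.24) and Jak2 (-1.13) were 2-fold lower than after the first, beside 2.3% of all genes. Stat4 (1.46), which IL-12 activates, and Socs1 (1.09) were 2-fold higher, beside 2.41%. With MDP after Pam3CSK4, Socs1 (2.17), Socs3 (1.95) and Stat4 (1.40) were 2-fold higher than with MDP alone, beside 2.14%. After a second MDP exposure Socs3 was 2-fold lower (-2.24) than after the first, beside 0.291%.

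Genes known to respond to IL-10 in macrophages were also counted. Whether IL-10 had a part in their values here was not tested. With MDP in naive cells 1 of 12, Socs3, was 3-fold higher, beside 0.22% of all genes. With Pam3CSK4 4 were 3-fold higher, beside 1.28% of all genes. They were Socs3, Bcl3 (2.48), an NF-kB cofactor, Zfp36 (2.21), an mRNA decay factor, and Il1rn (1.83), the interleukin-1 receptor antagonist. Cd163 (-0.87), Ddit4 (-0.41), Hmox1 (-0.26) and Fcgr1 (-0.23) were lower without passing 3-fold. The list median was 1.14, against 0.00 over all genes. After a second Pam3CSK4 exposure 6 of the 12 were 2-fold lower than after the first, beside 2.3% of all genes. Among them were Bcl3 at -1.95, Zfp36 at -1.40 and Socs3. In the same comparison 2 were 2-fold higher, with the heme oxygenase Hmox1 at 1.42, beside 2.41% of all genes. With MDP after Pam3CSK4 3 were 2-fold higher than with MDP alone, beside 2.14% of all genes. They were Socs3 (1.95), Fcgr1 (1.16) and Hmox1 (1.05). With Pam3CSK4 after MDP 0 of the 12 differed 2-fold from a first exposure, where 0.297% of all genes were higher and 0.022% lower.

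Transcription factors with known roles at these genes formed 2 further lists. Of 8 measured regulators of Il10, Prdm1 was the 1 that was 3-fold higher with Pam3CSK4 (2.20), beside 1.28% of all genes. It was also the 1 that was 2-fold lower after a second Pam3CSK4 exposure (-1.71), beside 2.3%. Nfil3 was at 1.45 and -0.74 in these comparisons. With MDP after Pam3CSK4 the repressor Bhlhe40 (-1.58) and the AP-1 subunit Fos (-1.10) were 2-fold lower than with MDP alone, beside 1.71% of genes. After a second Pam3CSK4 exposure Bhlhe40 (-0.72) and Fos (-0.76) were also lower than after the first, short of 2-fold. Of 11 regulators of the IL-12 family genes, 2 were 3-fold higher with Pam3CSK4, beside 1.28% of all genes. They were Nfkbiz (4.15), a nuclear NF-kB cofactor, and Rel (1.64), the c-Rel subunit of NF-kB. On the Pam3CSK4-pretreated arrays Nfkbiz was 12.21 and 12.12, against 12.57 at first exposure, and Rel 8.32 and 8.12, against 8.96. Il12b lay below the median on those 2 arrays. Nfkbiz was 3.40 higher with MDP after Pam3CSK4 than with MDP alone, and Atf3, a repressor of inflammatory genes, was 1.02 higher after a second Pam3CSK4 exposure than after a first. Irf1, an interferon regulatory factor, was at 1.43 with MDP and 1.55 with Pam3CSK4. After a second MDP exposure Irf1 was 2-fold lower than after the first (-1.04), beside 0.291% of genes. The part of any of these factors in the Il10 and Il12b values was not tested.

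**Figure D3:**
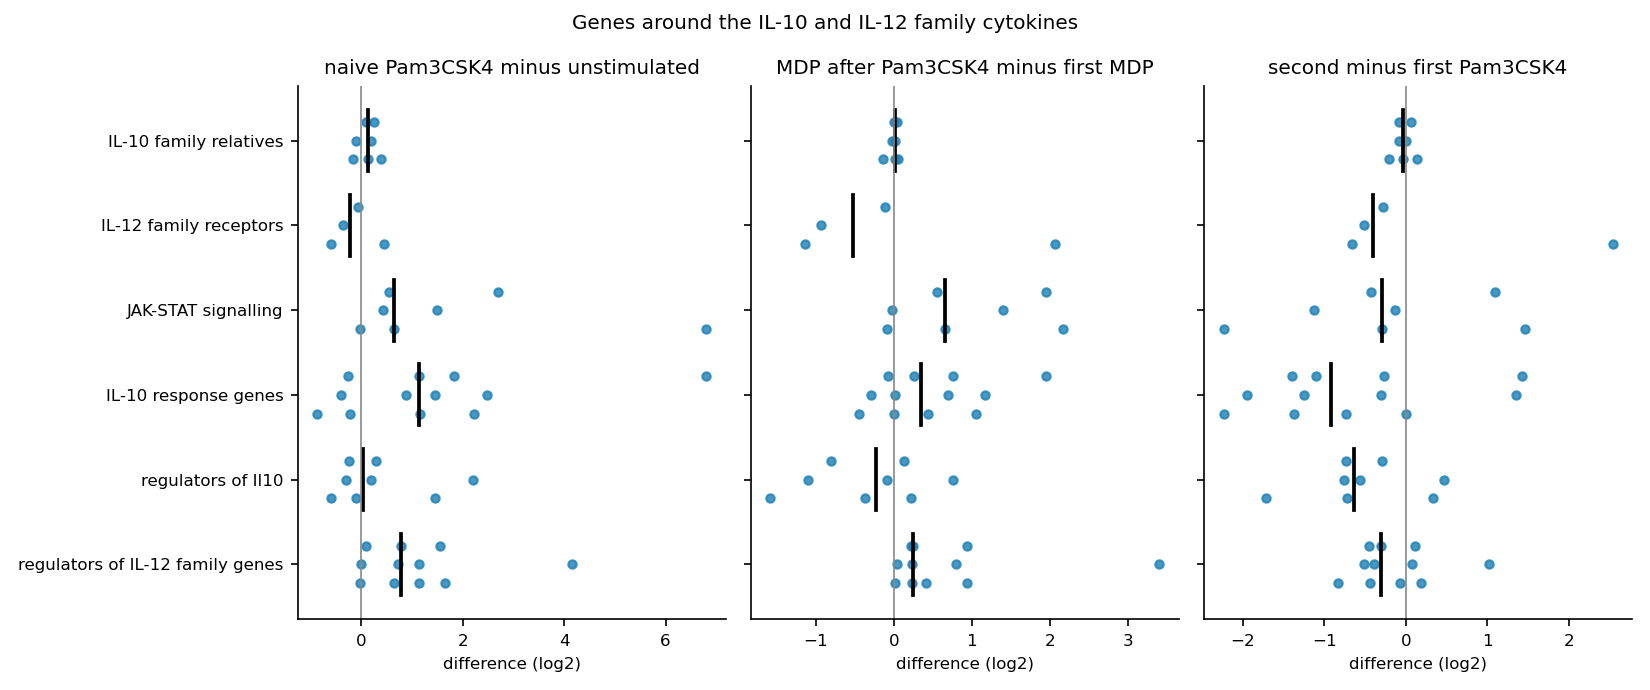
Differences on the log2 scale (x axis, own range in each panel) of the genes in 6 lists (y axis) for 3 comparisons of single arrays, with 1 point for each gene and a black bar at the list median. The IL-10 response genes have a median of 1.14 for naive Pam3CSK4 over unstimulated and -0.92 for the second against the first exposure, and the IL-10 family relatives lie close to 0.

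Among 1907 genes that ranged over at least 1 on the log2 scale and exceeded the median of at least 1 array, the genes whose profiles lay closest were found by the root mean square difference over the 7 arrays, after each gene was centred on its own mean. Those nearest to Il10 were the kinase gene Pim1 (0.26), the transcription factor gene Batf (0.29), Tnf (0.32), Timp1 (0.33) and Gm6377 (0.35). Nearest to Il12b were the GTPase genes Rnd1 (0.15) and Rhou (0.16), the protease genes Adamts4 (0.17) and Plat (0.17), and Tnfsf4 (0.20). Nearest to Ebi3 were Zfp281 (0.09), Tmem26 (0.10), Arrdc4 (0.12), Osgin2 (0.13) and Triobp (0.13), and nearest to Il10ra were Ube2e2 (0.08), Jund (0.09), Snx20 (0.09), Usb1 (0.10) and Nampt (0.11). These genes were picked for their likeness, so it is a description. Tnf read 10.23 with MDP in naive cells against 9.32 in unstimulated cells, a wider step than that of Il10. Rnd1 (4.47 to 5.06), Adamts4 (4.45 to 4.81), Plat (4.25 to 4.75) and Tnfsf4 (4.67 to 5.20), like Il12b, lay below the median on 5 arrays. Their likeness to Il12b there is between values not distinguishable from background. Rhou lay above the median on all 7 arrays, so on those 5 it is set against Il12b values at background.

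**Figure D4:**
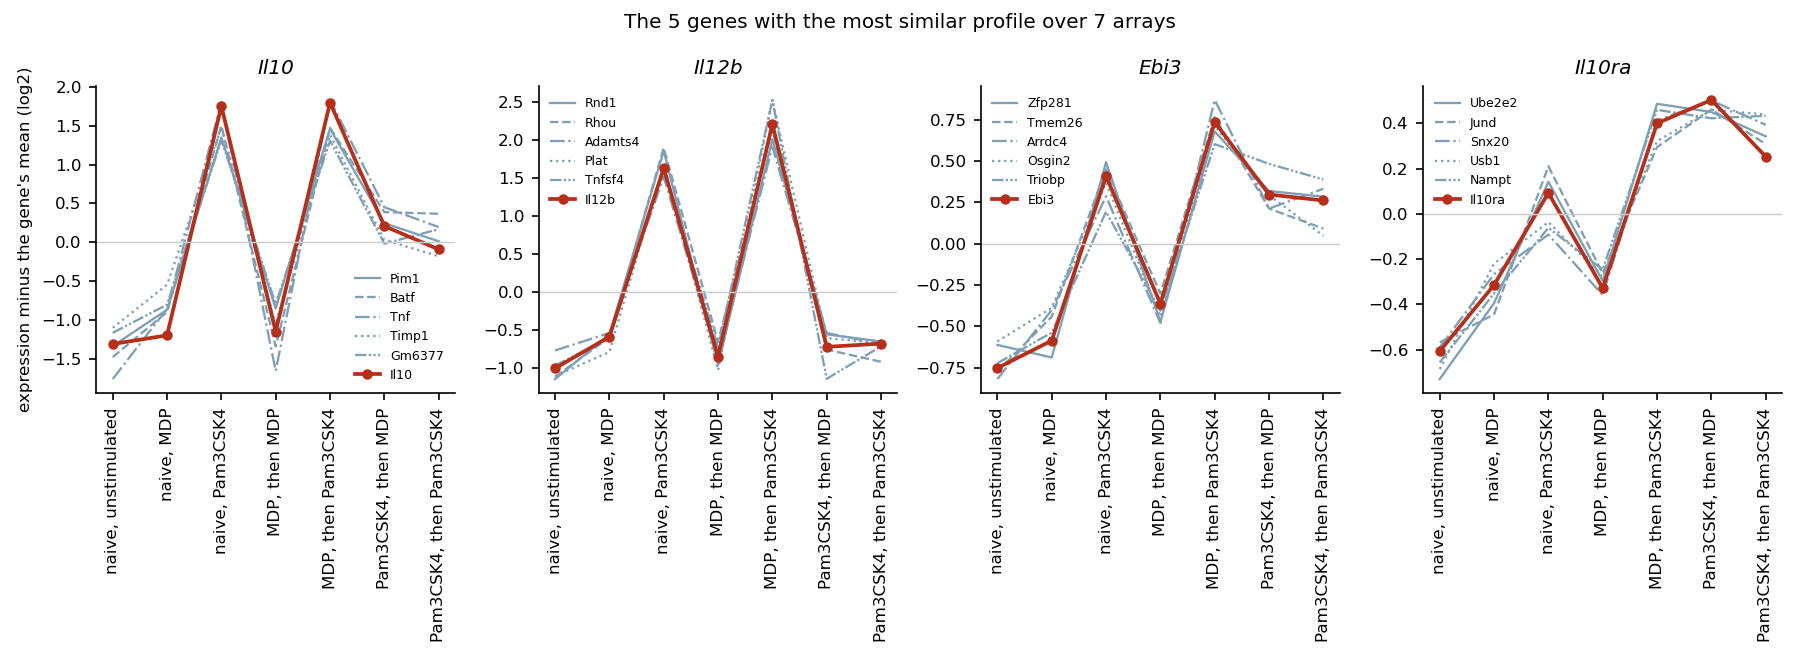
Expression on the log2 scale minus each gene's mean (y axis, own range in each panel) over the 7 arrays (x axis) for Il10, Il12b, Ebi3 and Il10ra in red and the 5 genes with the closest profiles in blue, with lines only to guide the eye between single arrays. Ebi3 and Il10ra stay raised on the Pam3CSK4-pretreated arrays, where Il10 is intermediate and Il12b is low.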

How the data were processed

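Total RNA from 7 macrophage cultures was hybridised to 1 Affymetrix array each, all labelled replicate 2. The authors deposited log2 expression values for 45101 probe sets, with affy and RMA named as tools per the submitters' processing notes. Versions, and which arrays were normalized together, are not given in the sources used here. No value was missing or transformed again.

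Symbols came from the platform annotation (34958 probe sets with 1 symbol, control probe sets included, 932 with several, 9211 with none). Control probe sets were left out of the genes. All 7 measured members had their gene identifier and symbol in the RefSeq gene table. Single arrays were compared in 15 pairs, without tests, at the study's 3-fold over unstimulated and at 2-fold otherwise, the study's limit for tolerized genes. Alternatives changed the centring, the normalization, the choice of probe set, the floor on low values, the value added to the linear scale (32) and the thresholds. The members, the 13 other gene lists, the thresholds and the alternatives were chosen with earlier results of these data known. The genes named are all members, listed genes past a threshold in the list comparisons described (up to 4 per list and comparison), and the 5 closest profiles. Those comparisons leave out Pam3CSK4 against MDP in naive cells. There 7 of 12 IL-10 response genes were 2-fold higher with Pam3CSK4, beside 1.4% of all genes. Other listed genes and markers named were chosen after their values were seen. Genes that the lists hold without a single-symbol probe set are not analysed here. The calculation was tested on simulated arrays. Their noise came from shuffled differences between the Pam3CSK4-pretreated arrays, which lay close together. The simulation checks the calls and does not measure the spread between cultures. Python 3.11.15, numpy 2.4.6, pandas 2.3.3 and matplotlib 3.10.9 were used.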

Additional observations from a re-analysis of the deposited data

Results flagged for a closer look

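Il10 is listed here because, in Pam3CSK4-pretreated cells, its difference from naive cells given the same ligand had opposite signs under the 2 ligands, 1.41 on the log2 scale with MDP and -1.85 with Pam3CSK4. This was not particular to Il10, since Socs3 differed by 1.95 and -2.24. The pretreated Il10 values were 8.92 and 8.62 and the naive ones 7.51 and 10.47, so most of the gap between the 2 differences lies in the naive arrays. Each value rests on 1 array against 1, and the difference between them was not tested.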

How the results depend on the processing

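No paired analysis was possible because all 7 arrays carry the same replicate number and each group has 1 array. Of 135 recounts of members past the threshold, 117 stayed within 1.5 times the reported count. With values below the array median set to it, 1 member in place of 2 passed for naive Pam3CSK4 over unstimulated, Pam3CSK4 over MDP in naive cells, the second against the first Pam3CSK4 exposure, and MDP then Pam3CSK4 over unstimulated. With the 75th percentile as that floor the count was 1 in the same 4 comparisons and between the pretreatments under Pam3CSK4, and 0 for MDP after Pam3CSK4 against MDP alone and between the pretreatments under MDP, where Il10 was 1. With 32 added to the linear values 1 member was past 3-fold for naive Pam3CSK4. After a further quantile normalization Il10 passed 3-fold with MDP after Pam3CSK4 over unstimulated (1 member, 1.60). With the thresholds exchanged, 3, 2 and 4 members were 2-fold over unstimulated for MDP after Pam3CSK4, a second Pam3CSK4 exposure and MDP then Pam3CSK4, and 0 were 3-fold higher where Il10 was 2-fold higher, after Pam3CSK4 against naive and against MDP pretreatment under MDP. Of 739 values of single members none changed sign while past a threshold and 9 crossed one. Without less specific probe sets Il12a had none. No value is given where both arrays lay below a floor. Signal over background limits Il12b, Il12a and Il23a.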
